A study of Mus musculus with 6 samples.

Results

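Cartilage and calcification regulators were described here as a set of 10 genes that govern cartilage formation or the deposition of calcium phosphate in tissue: Sox9, Sox5, Acan, Runx2, Bmp2, Bmp4, Alpl, Mgp, Enpp1 and Tnfrsf11b. Every probe set whose platform gene symbol was one of these names was taken, which gave 17 of 45101 probe sets and 8 of the 10 genes. No probe set carried the symbol Runx2 or Enpp1 in the annotation used, and these genes were not analysed here. Total RNA of whole aorta was measured on 6 single-colour oligonucleotide arrays at 32 weeks of age. The apoE-/- group held 3 arrays from mice lacking apolipoprotein E, and the wild type group held 3 arrays from C57BL/6J mice. Neither group received a treatment that the labels name. Arrays are numbered within a genotype, and nothing in the labels tells whether each is a separate animal, a pool of animals or a repeat of 1 preparation, so the p-values below reflect array-to-array spread that may be technical.

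The cartilage programme starts with the transcription factor SOX9, which with SOX5 and SOX6 switches on the genes of the cartilage matrix, among them Acan, whose product aggrecan is the large proteoglycan of cartilage. In the vessel wall, smooth muscle cells can take on features of cartilage or bone cells, and calcium phosphate can then form in the intima or media. RUNX2, the bone morphogenetic proteins BMP2 and BMP4, and the phosphatase encoded by Alpl are known as promoters of this process, while matrix Gla protein (Mgp), the pyrophosphate-forming enzyme ENPP1 and osteoprotegerin (Tnfrsf11b), the decoy receptor for RANK ligand, are known as inhibitors.

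Promoter sequences were available for 6 of the 10 genes in RefSeq (GRCm38.p6), and those of Acan and Sox5 are shown because Acan is a textbook target of SOX proteins and Sox5 is the gene with the most probe sets here. Each is the 250 bases before the annotated start, 5′ to 3′, with the letters ACAAT, a core that SOX proteins bind, in capitals wherever they or their reverse complement ATTGT occur. The Acan sequence lies on chromosome 7 at chr7:79052976-79053225 on the plus strand, and the Sox5 sequence on chromosome 6 at chr6:143947107-143947356 on the minus strand.
Acan: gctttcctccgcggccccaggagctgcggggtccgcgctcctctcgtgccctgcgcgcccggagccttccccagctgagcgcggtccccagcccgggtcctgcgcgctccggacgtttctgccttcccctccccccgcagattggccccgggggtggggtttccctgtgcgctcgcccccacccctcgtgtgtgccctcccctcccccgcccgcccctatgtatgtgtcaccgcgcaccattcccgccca
Sox5: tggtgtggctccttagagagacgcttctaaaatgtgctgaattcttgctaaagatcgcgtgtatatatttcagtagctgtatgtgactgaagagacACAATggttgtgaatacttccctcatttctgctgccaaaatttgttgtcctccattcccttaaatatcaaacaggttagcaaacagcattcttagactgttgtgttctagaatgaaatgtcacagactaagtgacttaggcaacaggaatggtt
The Acan sequence was 74.4% G or C and held no ACAAT on either strand, and the Sox5 sequence was 39.6% G or C with 1 match, 154 bases before the start. The median over all 32851 promoter windows was 52.4% G or C, and 27.7% of these windows held the letters. Among the members with a sequence, Runx2 and Sox5 held them. The letters TATAAA, searched on both strands, were in neither of the 2 sequences shown and in 12.4% of all windows. No array value bears on binding at these windows.

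Intensities are given in the units of the deposited table, where every array had been scaled to a trimmed mean of 500.002 (2% trimmed at either extreme). Changes are on the scale log2(intensity + 16), apoE-/- minus wild type, which understates changes of dim probe sets. They come from a limma fit over 13031 genes, 1 probe set each, and a call means an adjusted p (Benjamini-Hochberg) under 0.05. Of all genes tested, 3.63% were called, 3.15% as rises and 0.483% as falls, and 18.4% had an unadjusted p under 0.05. The median change of all genes was -0.05. Array medians lay between 178 and 195.5 units. The Apoe probe set read 239.5, 56.3 and 462.1 units on the apoE-/- arrays, against 5685.6, 5625.2 and 4309.1 units on the wild type arrays, so all 6 labels matched it. The apoE-/- replicate 2 array lay nearest to the wild type arrays on the first principal component, at 9.77 against 24.4 and 33.4 for the other apoE-/- arrays.

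Of the 8 members tested, 2 rose and none fell. The risers were Sox9 and Tnfrsf11b, 1 gene of the cartilage programme and 1 inhibitor. None of the 3 tested promoters of calcification was called by limma, and 0 of 3 had an unadjusted p under 0.05. The median change of the 8 genes was 0.19, with 6 above 0. The members were chosen with earlier results of these data known, so their shares are descriptive and cannot be weighed against those of all genes. Their share called was 2 of 8, beside the 3.63% of all genes. The groups did not overlap in 2 of 8 members, against 24.6% of all genes. Separation of the groups was thus no more frequent in the members than in the background. The plot of the member genes by array shows these values.

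**Figure D1:**
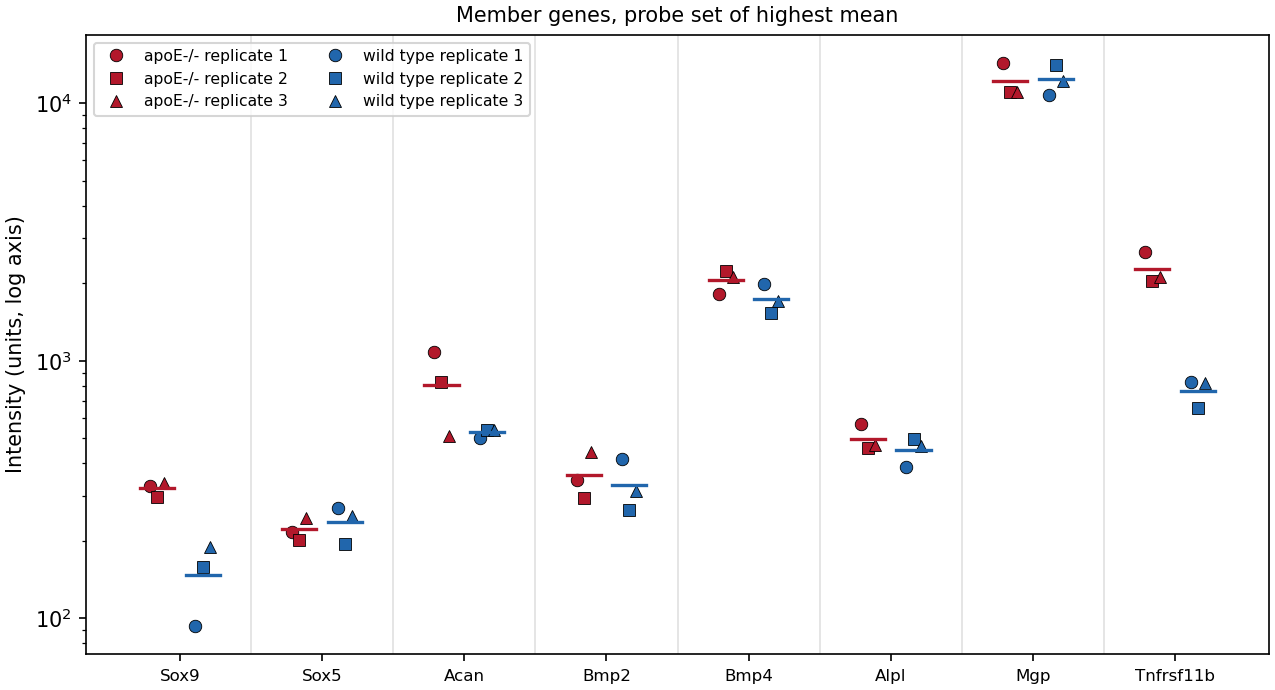
Intensity on a log axis for the probe set of highest mean of each of the 8 member genes. Points are arrays, apoE-/- on the left and wild type on the right of each gene, and bars are group means (n = 3 each). The groups stand apart for Sox9 and Tnfrsf11b and overlap for the other genes.

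Osteoprotegerin gave the largest change of the set. The brighter of its 2 probe sets read 2633.9, 2048.3 and 2111.4 units on the apoE-/- arrays, against 823.9, 655.8 and 816.4 units on the wild type arrays. Every apoE-/- array exceeded every wild type array by a wide margin. The group means were 2265 ± 321 units in apoE-/- aorta and 765 ± 94.96 units in wild type aorta (SD, n = 3 each), a 2.96-fold ratio. The change was 1.54 ± 0.13 (SE, 95% interval 1.24 to 1.85, limma adjusted p = 8.55e-04). The dimmer probe set is annotated to the same transcript and is not an independent measurement of it. It read 598.5, 295.7 and 332.6 units in apoE-/- aorta, against 132.2, 154.8 and 118.7 units in wild type aorta. Here too the groups did not overlap, with apoE-/- replicate 1 the highest on both probe sets, and the ratio of means was 3.02. When each of 27022 probe sets was fitted on its own, of which 2.72% were called, 2.44% as rises, this probe set changed by 1.43 ± 0.26 (SE, limma adjusted p = 0.0215). The Tnfrsf11b gene was called under all 19 alternatives run, with changes between 1.43 and 1.61.

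Sox9, the master regulator of cartilage formation, rose on its brightest probe set, and its 3 probe sets did not move the same way. That probe set read 327.4, 295.4 and 335.7 units on the apoE-/- arrays, against 93.5, 158 and 189.8 units on the wild type arrays. The apoE-/- arrays lay close together above a wider wild type group, and the groups did not overlap. The means were 319.5 ± 21.3 units in apoE-/- aorta and 147.1 ± 49.1 units in wild type aorta (SD, n = 3 each), and the change was 1.09 ± 0.24 (SE, 95% interval 0.54 to 1.63, limma adjusted p = 0.0451). A probe set annotated to the same cDNA but lying under the filter on dim probe sets, read 202.3, 146.4 and 113.2 units in apoE-/- aorta, against 78.9, 19.6 and 47.4 units in wild type aorta, again without overlap. The remaining Sox9 probe set, annotated to a different transcript sequence and also under the filter, read 64.2, 82.6 and 92.6 units in apoE-/- aorta, against 107.9, 137.4 and 156.6 units in wild type aorta. On that probe set all apoE-/- arrays were the lower ones. When every probe set was fitted with no filter, these dim probe sets changed by 1.47 and -0.64 (limma adjusted p = 0.167 and 0.335). Neither was called, and the disagreement in sign was not resolved by these arrays.

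The Sox9 call lay close to the threshold. It held in 8 of the 18 alternatives in which its probe sets were tested, and the gene was not tested with a filter on the lower 60%. Of the 6 fits without 1 array it was called only without wild type replicate 3 (limma adjusted p = 0.0446). Leaving out an apoE-/- array gave limma adjusted p = 0.163 (replicate 1), 0.0633 (replicate 2) or 0.169 (replicate 3), and leaving out a wild type array gave 0.0766 (replicate 1) or 0.0775 (replicate 2). The change stayed between 0.82 and 1.28 in these 6 fits. With no filter and the median of all 3 probe sets the change was 0.22 (limma adjusted p = 0.770).

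**Figure D2:**
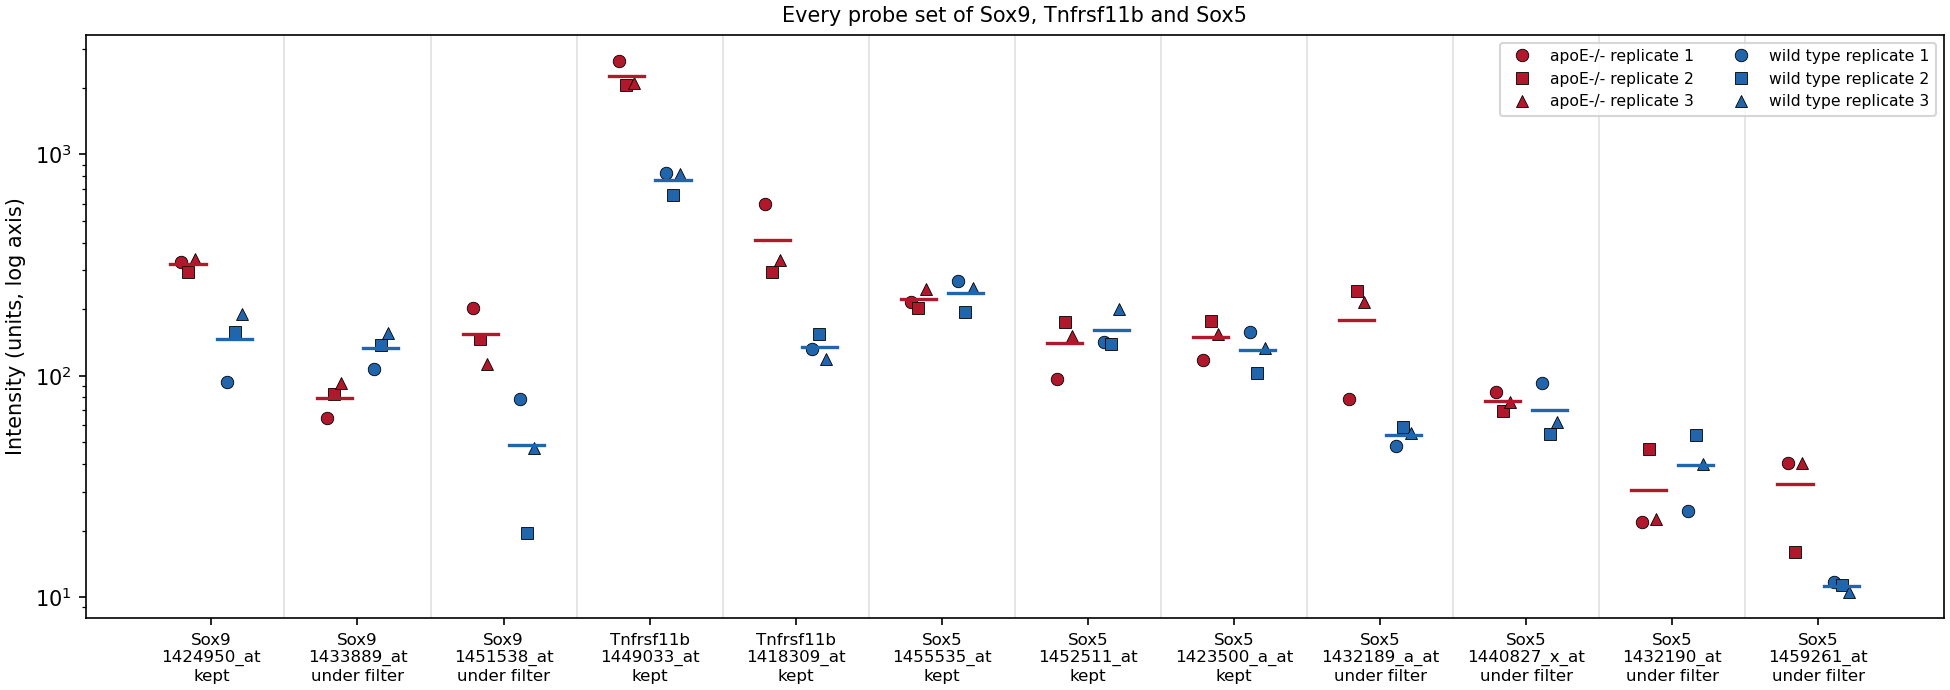
Intensity on a log axis for every probe set of Sox9, Tnfrsf11b and Sox5, with kept probe sets and those under the filter marked below each. Points are arrays, apoE-/- on the left and wild type on the right, and bars are group means (n = 3 each). Both Tnfrsf11b probe sets are higher on all apoE-/- arrays, while 1 of the 3 Sox9 probe sets is lower on all of them.

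Sox5, a partner of SOX9 that binds together with it on cartilage genes, had 7 probe sets, of which 3 passed the filter and none of those was called. The brightest read 216.2, 202.4 and 246.1 units in apoE-/- aorta, against 267.3, 194.2 and 249.3 units in wild type aorta. The groups overlapped fully. The change was -0.08 ± 0.18 (SE, 95% interval -0.49 to 0.32, limma adjusted p = 0.844), and the other kept probe sets changed by -0.19 and 0.17. The brightest probe set under the filter read 78.9, 241.4 and 216 units in apoE-/- aorta, against 48.2, 58.6 and 55.2 units in wild type aorta. Its groups did not overlap, and apoE-/- replicate 1 was far below the other apoE-/- arrays (limma adjusted p = 0.195 with every probe set fitted and no filter). The dimmest probe set, at most 40.6 units on any array, was also higher on every apoE-/- array, and the other 2 overlapped.

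Acan, the aggrecan core protein, was higher on the mean of the apoE-/- arrays and was not called. It read 1084.7, 825 and 508.6 units in apoE-/- aorta, against 502.5, 540.8 and 539.3 units in wild type aorta. Replicates 1 and 2 of apoE-/- lay above all wild type arrays, and replicate 3 lay within them. The change was 0.53 ± 0.24 (SE, 95% interval -0.00 to 1.07, limma adjusted p = 0.275). It was 0.82 without apoE-/- replicate 3, which passed the threshold (limma adjusted p = 0.0475), and 0.29 without apoE-/- replicate 1 (limma adjusted p = 0.543).

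Among the promoters of calcification, the bone morphogenetic proteins and alkaline phosphatase had overlapping groups. Bmp2, a ligand that drives bone and cartilage formation, read 345.1, 294 and 443.9 units in apoE-/- aorta, against 415.8, 264.2 and 312.5 units in wild type aorta. Its change was 0.12 ± 0.21 (SE, 95% interval -0.35 to 0.60, limma adjusted p = 0.794). Neither group was the higher one throughout.

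Bmp4, a related ligand, read 1818.9, 2233.4 and 2118.4 units in apoE-/- aorta, against 1979.6, 1535.3 and 1699.9 units in wild type aorta. Its change was 0.24 ± 0.12 (SE, 95% interval -0.03 to 0.52, limma adjusted p = 0.336). Only apoE-/- replicate 1 fell within the wild type range. Alpl, the phosphatase that removes the mineralization inhibitor pyrophosphate, read 567.5, 457 and 469.8 units in apoE-/- aorta, against 387.6, 495.7 and 468.3 units in wild type aorta, and changed by 0.14 ± 0.15 (SE, 95% interval -0.19 to 0.47, limma adjusted p = 0.652). The interval of Bmp2 leaves room for a change of 0.60 and that of Alpl for 0.47, so a missed threshold does not show that these genes were equal.

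Mgp, the vitamin K dependent inhibitor secreted by smooth muscle cells, was by far the brightest member, at the 99.8 percentile of all probe sets by mean. It read 14316.2, 11052.5 and 11015.8 units in apoE-/- aorta, against 10767.4, 14066.8 and 12210.8 units in wild type aorta. Both groups spanned nearly the same range. The change was -0.03 ± 0.14 (SE, 95% interval -0.34 to 0.28, limma adjusted p = 0.936). The 2 tested inhibitors gave 1 rise and 1 gene that was not called, and no test of their difference was made.

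**Figure D3:**
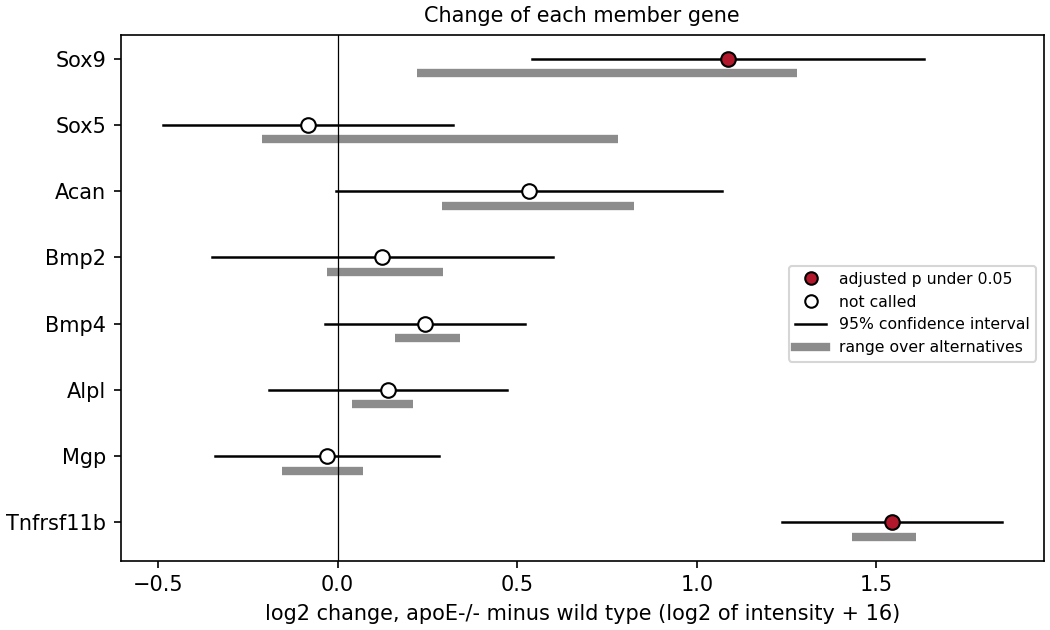
Change of each member gene, apoE-/- minus wild type, on the log2(intensity + 16) scale. Circles are the fitted changes, filled where the adjusted p was under 0.05, thin lines are 95% intervals and grey bars are the range over the alternatives. Tnfrsf11b keeps a narrow range from 1.43 to 1.61, while Sox9 spans 0.22 to 1.28 and Sox5 spans 0.

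Of all 17 member probe sets, 11 passed the filter and 3 of these were called, against 2.72% of kept probe sets. The groups did not overlap in 7 of the 17, with 6 higher and 1 lower in apoE-/- aorta, beside 19.2% of all probe sets and 22.7% of kept ones. Of those 7, 4 lay under the filter, 3 higher and 1 lower.

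Other genes of these pathways were taken from lists written for cartilage, bone and mineral biology with earlier results of these data known. Of 15 tested cartilage matrix and chondrocyte genes, 2 rose and none fell, with a median change of 0.21 against -0.05 for all genes. Col2a1, the main collagen of cartilage, read 2253.8, 1477.9 and 468.3 units in apoE-/- aorta, against 89.5, 79.7 and 98.4 units in wild type aorta, a change of 3.49 ± 0.47 (SE, limma adjusted p = 0.00582). Prg4, the joint lubricant proteoglycan, read 6288.3, 1520.2 and 3919.4 units in apoE-/- aorta, against 368, 501.9 and 322.5 units in wild type aorta, a change of 3.05 ± 0.43 (SE, limma adjusted p = 0.00762). Both were above every wild type array on all apoE-/- arrays and were called in all 19 alternatives. The wild type values of Col2a1 were as dim as probe sets under the filter, and it passed the filter only through its apoE-/- values. With no filter it was called too (limma adjusted p = 0.0156). The order of apoE-/- arrays differed, with replicate 3 lowest for Col2a1 and replicate 2 lowest for Prg4.

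Chad, which encodes the cartilage protein chondroadherin, had no test with the filter used here. It read 1573.7, 199.5 and 204.8 units in apoE-/- aorta, against 22.4, 8.4 and 33.2 units in wild type aorta. The groups did not overlap, and apoE-/- replicate 1 was several times above the other apoE-/- arrays. When every probe set was fitted with no filter, its change was 3.56 and was not called (limma adjusted p = 0.0745). In the fit of 1 probe set per gene with no filter, the list again had 2 rises, as it had with a 60% filter. With a filter on means of linear intensities, which Chad passed only through its apoE-/- values, 16 genes were tested and 3 counted as called, Chad among them (limma adjusted p = 0.0340), so that call is no support for a change. The count was also 3 without apoE-/- replicate 3.

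Comp and Hapln1, matrix partners of collagen and aggrecan, were chosen for mention after their values were seen. Comp read 4423.8, 2682.8 and 1509.8 units in apoE-/- aorta, against 1288.2, 1120 and 1299.2 units in wild type aorta (change 1.08 ± 0.32, SE, limma adjusted p = 0.121). Hapln1, the link protein that fastens aggrecan to hyaluronan, read 268.9, 225.6 and 172.7 units in apoE-/- aorta, against 158.4, 148.9 and 161.6 units in wild type aorta (limma adjusted p = 0.270). Of the 15 tested genes of the cartilage list, 5 had the order of apoE-/- arrays seen for Acan, highest on replicate 1 and lowest on replicate 3, namely Col2a1, Comp, Hapln1, Col11a2 and Wwp2, and the other 10 did not. Wwp2 was lower on the mean of the apoE-/- arrays (change -0.21). The order was picked from the values of Acan, and its share over all genes was not counted, so no shared pattern is read from it. The brightest Sox9 probe set was nearly level over these arrays. The dim Sox9 probe set annotated to the same cDNA had the order of Acan, at 202.3, 146.4 and 113.2 units. The remaining Sox9 probe set had the reverse order, at 64.2, 82.6 and 92.6 units. Col9a1, a chain of cartilage collagen IX, read 281.9, 450.4 and 290 units in apoE-/- aorta, against 408.1, 284.7 and 538.3 units in wild type aorta, with a change of -0.24. Matn3, a cartilage matrilin, read 133.8, 199.8 and 129.5 units in apoE-/- aorta, against 155.6, 161.1 and 224.4 units in wild type aorta, with a change of -0.21. Neither was called, and both had overlapping groups. The summed level of 7 chondrocyte markers was 7630.6, 5276.9 and 2720.8 units on the apoE-/- arrays, against 2253.1, 1966.8 and 2472.1 units on the wild type arrays, and 1 of 6 tested markers rose. Most of this difference lay in Col2a1 and Comp: the other 5 markers summed to 953, 1116.2 and 742.7 units in apoE-/- aorta, against 875.4, 767.1 and 1074.5 units in wild type aorta, with overlap.

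**Figure D4:**
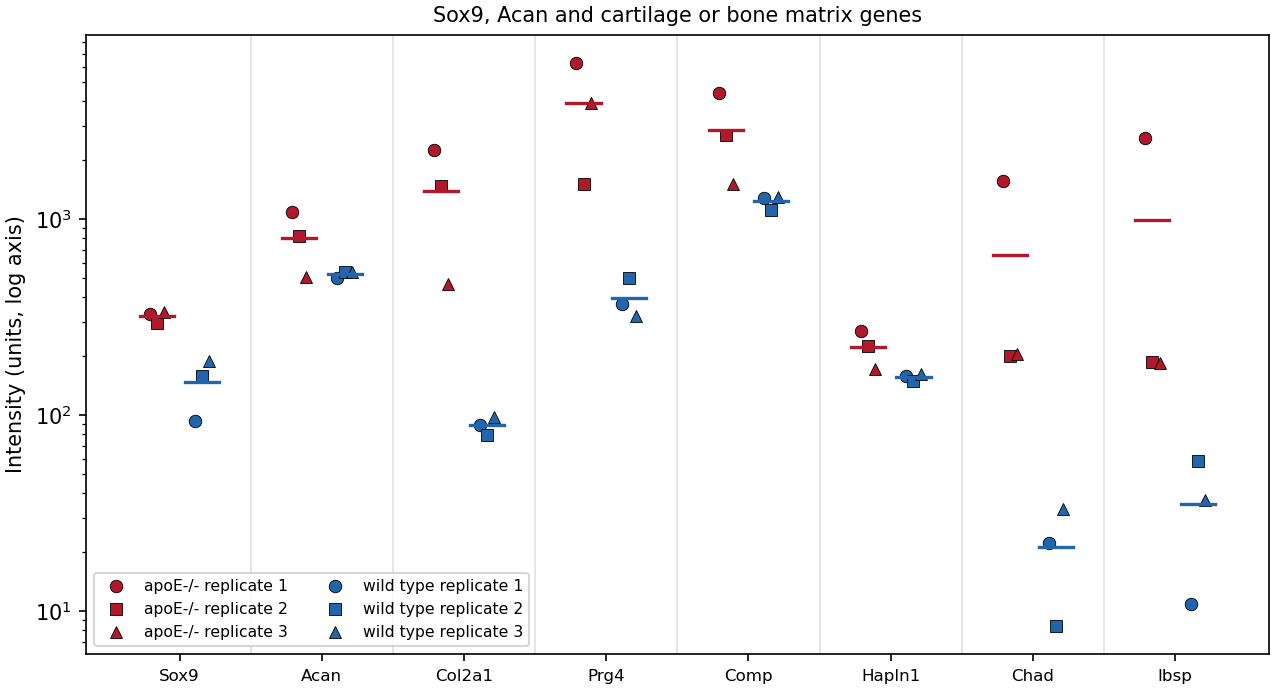
Intensity on a log axis for Sox9, Acan and 6 genes of cartilage or bone matrix picked with their values known. Sox9 and Acan are shown by their probe set of highest mean, and the 6 genes by the probe set with the highest value on any array. That choice favours a probe set with a single extreme array, and for Ibsp it is not the probe set used in the fit. Points are arrays with 1 symbol per replicate number, apoE-/- on the left and wild type on the right, and bars are group means (n = 3 each). The apoE-/- replicate 1 array is the highest for every gene shown except Sox9.

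Of 13 tested aggrecan partners and turnover genes, 1 rose and none fell, with a median change of 0.07. Cd44, a hyaluronan receptor that leukocytes also carry, read 4600.9, 3091.1 and 4817.3 units in apoE-/- aorta, against 2115.8, 1862.5 and 1717 units in wild type aorta (change 1.11 ± 0.17, SE, limma adjusted p = 0.0103). All 3 of its kept probe sets were called, and the call was lost without apoE-/- replicate 1 (limma adjusted p = 0.0601). The list had 2 rises without apoE-/- replicate 2, with array weights, or with no filter and the median of all probe sets. Adamts4, named after its values were seen, was not called (change 0.64 ± 0.18, SE, limma adjusted p = 0.110). Its dimmer probe set, under the filter, changed by 1.87 when every probe set was fitted with no filter (limma adjusted p = 0.0193). The groups did not overlap on either probe set.

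Of 10 tested SOX and RUNX partners, 1 rose and none fell, with a median change of -0.11. Sox4, a SOX factor of progenitor cells, read 2420.9, 2131.1 and 2493.7 units in apoE-/- aorta, against 993.5, 718.6 and 1548.8 units in wild type aorta (change 1.17 ± 0.23, SE, limma adjusted p = 0.0325). The groups did not overlap. Of its 3 kept probe sets 1 was called and 2 shared the sign, and the call held in 12 of 19 alternatives, lost among others without apoE-/- replicate 1, apoE-/- replicate 3 or wild type replicate 1.

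Of 13 tested BMP ligands, receptors and SMAD mediators, 1 fell and none rose, with a median change of -0.11. Bmpr1b, a type I receptor for BMP ligands, read 414.1, 612.1 and 480.1 units in apoE-/- aorta, against 877.6, 860.2 and 892.5 units in wild type aorta (change -0.80 ± 0.15, SE, limma adjusted p = 0.0227). All apoE-/- arrays were lower than all wild type arrays, and 1 of its 2 kept probe sets was called. The call held in 11 of 19 alternatives. Of the 6 fits without 1 array only that without apoE-/- replicate 2 called it, and the change was -0.54 with the median of its kept probe sets and -0.28 with the median of all of them. Among 16 tested BMP antagonists and feedback targets limma called none, 4 had an unadjusted p under 0.05, and the median change was -0.18. Sost, which encodes sclerostin, had the smallest p, at 4641.7, 6043.4 and 5077.9 units in apoE-/- aorta, against 6695.5, 7996 and 8012.7 units in wild type aorta (change -0.53 ± 0.12, SE, limma adjusted p = 0.0531). This list had 1 fall without apoE-/- replicate 2, with a 60% filter or with array weights.

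No tested bone or mineral gene outside the members was called. Of 17 listed osteoblast and bone matrix genes, 14 had a probe set and 10 were tested. Bglap and Spp1 had no probe set under these symbols, and Dmp1, Mepe, Msx2 and Dlx3 lay under the filter, so the counts below do not cover them. In the osteoblast and bone matrix list, 0 of 10 tested genes passed in limma and 2 had an unadjusted p under 0.05, with a median change of 0.09, and Col1a1, a chain of type I collagen, had the smallest p (change 0.56 ± 0.13, SE, limma adjusted p = 0.0619). That list had 2 rises without apoE-/- replicate 2 and 1 with quantile normalization or array weights. Ibsp, which encodes bone sialoprotein and was named after its values were seen, read 2593.3, 186.1 and 184.6 units in apoE-/- aorta on 1 of its 2 probe sets, against 10.9, 58.1 and 36.9 units in wild type aorta. On the other, which stood for the gene in the fit, it read 563.6, 136.7 and 112 units in apoE-/- aorta, against 86.2, 93 and 125 units in wild type aorta, with overlap (limma adjusted p = 0.365). The high value of both came from apoE-/- replicate 1.

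In phosphate and pyrophosphate handling 0 of 10 tested genes passed and 2 had an unadjusted p under 0.05, led by Anxa5, a calcium-binding annexin (change 0.35 ± 0.10, SE, limma adjusted p = 0.0991). In the vitamin K cycle and other inhibitors 0 of 6 passed and 0 had an unadjusted p under 0.05, led by Gas6, a vitamin K dependent ligand (change 0.23 ± 0.10, SE, limma adjusted p = 0.272). Among the 4 tested osteoprotegerin ligands and RANK pathway genes none passed and 1 had an unadjusted p under 0.05, led by Tnfsf10, the death ligand TRAIL that osteoprotegerin also binds (change 0.41 ± 0.13, SE, limma adjusted p = 0.148). The medians of these lists were 0.16, 0.08 and 0.06. Tnfsf11, which encodes RANK ligand, had no test: both of its probe sets lay under the filter, at no more than 48.5 units on any array.

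Whole aorta holds many cell types, and in such samples fewer cells of a type and less RNA per cell cannot be told apart. Of 10 macrophage markers, 9 rose. The summed level of the 10 ran between 42732 and 62512 units on the apoE-/- arrays, against 14950 to 15963 units on the wild type arrays. Trem2, 1 of the 9, read 719.7, 473.9 and 1094 units in apoE-/- aorta, against 17, 30.7 and 34 units in wild type aorta. It passed the filter only through its apoE-/- values, so its call is no support for a change. Of 8 smooth muscle markers, 0 were called by limma, 3 had an unadjusted p under 0.05, and all 8 changes were below 0. The 3 were Smtn (-0.33), Lmod1 (-0.39) and Myocd (-0.52), with limma adjusted p = 0.0858, 0.130 and 0.148. Each was lower on every apoE-/- array than on any wild type array. The sum of the 8 ran between 50639 and 62071 units in apoE-/- aorta, against 57018 to 66212 units in wild type aorta. The 6 adventitial fibroblast markers, 1 of which rose, summed to between 53808 and 66252 units in apoE-/- aorta, against 48593 to 49983 units in wild type aorta. The riser was Lum, at 12580.5, 8489 and 10245.5 units in apoE-/- aorta, against 5428.2, 4852.2 and 4965.1 units in wild type aorta. For every other marker of this list the groups overlapped. Osteoblast markers, 4 of 5 listed and without Bglap, overlapped in their sum, at 523.8 to 1121.6 units in apoE-/- aorta, against 569.8 to 836 units in wild type aorta. Skeletal muscle markers summed to 1375 to 1606 units in apoE-/- aorta, against 2795 to 18259 units in wild type aorta, highest on wild type replicate 3, and 2 of 4 tested fell, Ckm and Casq1. Of 6 endothelial markers 1 rose, Emcn, and their sum overlapped between the groups, at 10395 to 12795 units in apoE-/- aorta, against 7608 to 10815 units in wild type aorta. The part of these markers in the Sox9, Tnfrsf11b, Cd44 and Sox4 values was not tested.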

How the data were processed

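The authors deposited a table of linear intensity values, 1 value for each of 45101 probe sets on each array. Tested on the values, each array had been scaled to a common trimmed mean; the software is not given in the sources used here, and the table holds no detection calls. Gene names came from the platform annotation, updated through the GRCm38.p6 gene table. The 64 control probe sets and the lower 40% of the others by mean of log2(intensity + 16) over the 6 arrays were dropped, leaving 27022, and each gene was represented by its kept probe set of highest mean. A limma fit (version 3.58.1, R 4.3.3, lmFit followed by trended eBayes) had genotype as its single term, with Benjamini-Hochberg adjustment over all features; the fit was tested on simulated data. The smallest two-sided p of an exact permutation test of 3 against 3 arrays is 0.1, and no such test was run. The number of arrays limits the precision.

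The members and gene lists were chosen with earlier results of these data known. The written design said only "mean over all 6 arrays" for the filter. Means of linear intensities were run first and gave 13052 genes, 477 of them called, and Sox9 at an adjusted p of 0.0481. The choice of log2 means was made after those results were seen, because it gives the gene count of an earlier processing of the same data; both are reported where they differ. The genes named are all members, Apoe, and of each list up to 4 called genes by size of change or the one of smallest p; others are said to be chosen after their values were seen. In all, 17 alternatives were planned, 6 of which leave out 1 array, and 2 were added after seeing the data.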

Additional observations from a re-analysis of the deposited data

How the results depend on the processing

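The number of arrays, with 3 a group, limits what these data can show, and the Tnfrsf11b rise was the only member call that held in all alternatives. Genes called numbered 473, against 309 with no intensity trend, 301 with the replicate block, 315 with no filter and the median of all probe sets of a gene, and 153 to 686 without 1 array. Member genes called numbered 2, against 1 with an offset of 1, no filter, a 60% filter, no intensity trend, the replicate block, or no filter and the median of all probe sets; without 1 array it was 1 to 2. Where 1 was left, it was Tnfrsf11b. Sox9 had adjusted p = 0.05001 with an offset of 1, 0.0840 with no filter, 0.0602 with no trend and 0.0825 with the replicate block (limma), where Bmpr1b had 0.0565. Member probe sets called numbered 3, against 1 with no filter or a 60% filter and 1 to 2 without 1 array. The sign of Mgp turned with array weights (0.023) and without apoE-/- replicate 2, apoE-/- replicate 3 or wild type replicate 2 (-0.15 to 0.070 over the fits without 1 array). That of Bmp2 turned without apoE-/- replicate 3 or wild type replicate 2 (-0.029 to 0.29), and that of Sox5 without wild type replicate 1 (-0.21 to 0.0045) and with no filter and the median of all probe sets (0.78). None of these was called either way. The values gave no sign that replicate numbers pair the arrays. Deviations of same-numbered arrays correlated at r = -0.104, -0.181 and -0.0519, and 0 of 3 correlated best with their own number. With 3 arrays a group, these values cannot show that no pairing existed. Filtering by linear means, added after seeing the data, kept the same 2 member calls and admitted Chad, which passed that filter only through its apoE-/- values. Leaving out an array or changing the filter changes the number of samples or genes, and the cause of these shifts was not tested.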

Other observations

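Genes under the filter or outside the rule for named genes gave the following values, chosen after they were seen. Col10a1, the collagen of hypertrophic cartilage, read 393.6, 21.4 and 27.8 units in apoE-/- aorta, against 13, 21.1 and 15.3 units in wild type aorta, so apoE-/- replicate 1 alone stood out. Ahsg, which encodes the serum mineralization inhibitor fetuin-A, read 83.4, 31.3 and 637.7 units in apoE-/- aorta, against 150.7, 82.1 and 10.3 units in wild type aorta, and there apoE-/- replicate 3 stood out.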
